A study of Mus musculus with 16 samples.

Results

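The 100 genes described here are those whose transcript level in mouse forebrain neuron cultures was lowest, relative to all other groups, when the cells carried a short hairpin RNA with 5 point mutations. For each gene the mean counts-per-million (CPM, the count over the library's total, times 1000000) of the 5-mutation group was divided by the lowest mean of the other 3 groups. The 100 lowest ratios were taken among 10152 protein-coding genes with a mean of at least 5 CPM in each of those 3 groups, out of 55335 genes in the table. Rtn4 was left out by the rule. Because these levels chose the genes, the difference between the 5-mutation group and the others is a description and carries no test. All 100 genes also passed the low-count filter of the gene-wise tests, which kept 19479 genes.

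The study sequenced ribosome-depleted total RNA from primary cultures of perinatal mouse forebrain neurons transduced with lentiviral vectors, 4 libraries for each of 4 treatments. The empty-vector group (Empty_Vector) received the vector alone. The other groups received a hairpin without mutations (shRNA, called unmutated), the hairpin with 2 point mutations (shRNA_2bp, 2-mutation) or with 5 point mutations (shRNA_5bp, 5-mutation). All 4 groups, controls included, were exposed to lentivirus, and separate cultures are not named for the replicates in the labels; p-values therefore reflect only the variation among these libraries.

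Short hairpin RNAs are cut by the enzymes that make microRNAs, and the product is loaded onto an Argonaute protein. A guide loaded in this way can silence a fully matched transcript, and it can also lower transcripts that pair only with its seed, the stretch of bases near its 5′ end, usually through sites in the 3′ untranslated region (3′ UTR). Mutated hairpins are used as controls because they should lose the first activity, but a mutated guide has a seed of its own where the changes fall in it.

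Total counts were 33795369 to 46187568 with the empty vector, 36143806 to 41152791 unmutated, 41618901 to 49824569 with 2 mutations and 35521472 to 47401867 with 5 mutations. Rtn4 lay at 850 ± 16.4 CPM (SD, n = 4) with the empty vector, 31.4 ± 0.916 unmutated, 120 ± 3.98 with 2 mutations and 860 ± 21.5 with 5 mutations. The noncoding locus Gm26917 took 5.85 to 6.34% of the counts with the empty vector, 7.37 to 8.02% unmutated, 10.9 to 11.5% with 2 mutations and 7.99 to 9.16% with 5 mutations. Neuronal markers were present in every group. The summed level of 20 pan-neuronal genes was 10987 to 11357 CPM with the empty vector and 9609 to 9834 CPM unmutated. It was 10360 to 10824 CPM with 2 mutations and 10732 to 11024 CPM with 5 mutations. Single genes of the list moved further, as given below.

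A 7-base word was shared by many of the genes. Among all 16384 words of 7 bases, read on the transcript strand of the longest annotated 3′ UTR, CTAACCA had the largest excess in the 100 genes over the 10085 eligible genes with a 3′ UTR of at least 50 bases. It stood in 47 of the 100 UTRs and in 8.63% of the eligible ones. The sites below are from genes with low ratios that hold it, with 11 bases on each side and the word in capitals. They show the shared word in its surroundings. The sequences are from the GENCODE vM21 transcripts on GRCm38, 5′ to 3′ on the strand of the gene.
Sdk2, chr11:113777148-113777176, minus strand: gattgccaagaCTAACCAaatagctgctc
Sdk2, chr11:113776735-113776763, minus strand: ggacacccaccCTAACCAacacctcgagc
Slc17a7, chr7:45175472-45175500, plus strand: tcaaggctcgcCTAACCAattctacattt
Slc17a7, chr7:45175507-45175535, plus strand: gctggtttaacCTAACCAccaatgccgcc
2900011O08Rik, chr16:14100145-14100173, plus strand: ttatcatttatCTAACCAccaagaaagcc
Ramp1, chr1:91223760-91223788, plus strand: tcgcagggtctCTAACCAgatgacaccca
Rab5c, chr11:100715970-100715998, minus strand: tggaatctactCTAACCAatcgcacttaa
Ccng1, chr11:40748591-40748619, minus strand: acagaagttaaCTAACCAactaccattat
Tacr3, chr3:134932497-134932525, plus strand: ccctcattctcCTAACCAtgccaggtcct
Tmem47, chrX:81094744-81094772, plus strand: aaaaagagaaaCTAACCAtccaacaaaag
Lifr, chr15:7191424-7191452, plus strand: ggacctcaagaCTAACCAactctgtgtag
Sv2a, chr3:96195160-96195188, plus strand: aggaagttaaaCTAACCAcaaaaagaaaa
Sirt2, chr7:28788250-28788278, plus strand: agctggggcctCTAACCAccatagcctct
Ctnnb1, chr9:120959865-120959893, plus strand: tgcctgacacaCTAACCAagctgagtttc

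The ratios of the 100 genes ran from 0.129 for Htr3a to 0.449 for Tspan18, with a median of 0.375, against a median of 1.21 over all eligible genes. Put as folds, the 5-mutation mean lay 2.23 to 7.77 times below the lowest other mean, with a median of 2.67. In all 100 genes each of the 4 libraries with 5 mutations lay below each of the 12 others, which held for 13.3% of eligible genes, and since the rule chose for this nothing is read from it. The gap between the highest 5-mutation library and the lowest other one was widest for Sdk2, at 6.24-fold, and narrowest for Rarb, at 1.06-fold, with a median of 2.2-fold. At the threshold, Pon2 (0.444), Slc22a17 (0.444), Ier5l (0.447), Clgn (0.449) and Tspan18 (0.449) were just inside and Dzank1 (0.449), Arl8b (0.452), Adh5 (0.455), Slc16a14 (0.457) and Usp14 (0.458) just outside. Counts behind these levels ran from 13 reads for Htr3a in 1 library with 5 mutations to 13153 for Gnao1. In whole cultures, fewer cells of a type and less RNA per cell cannot be told apart.

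**Figure D1:**
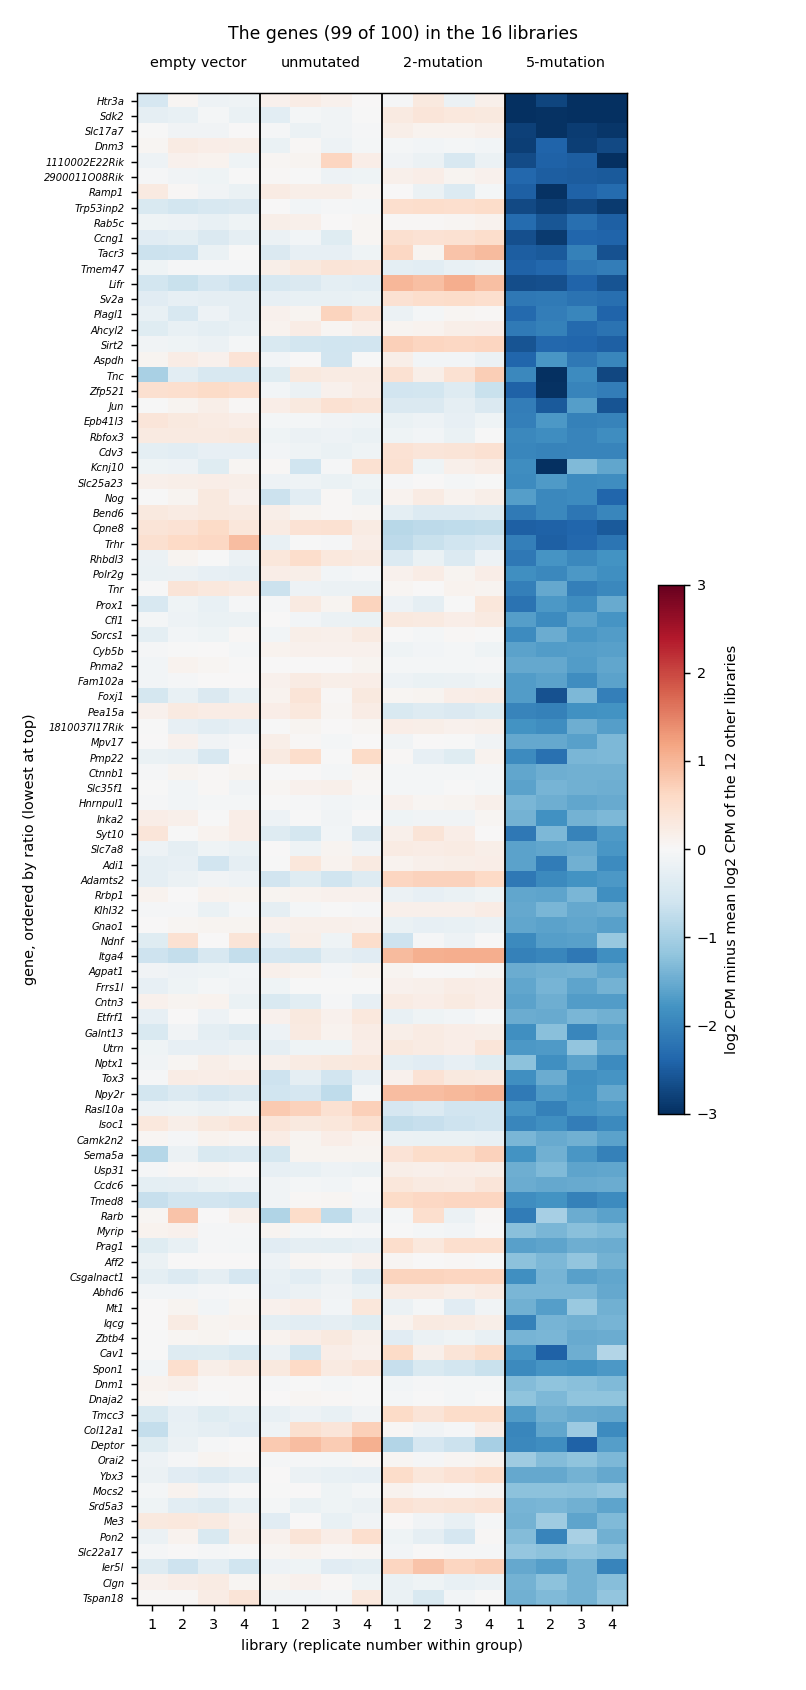
Heat map of 99 of the 100 genes (rows, lowest ratio at the top) in the 16 libraries (columns, in groups of 4), coloured by log2 CPM minus the gene's mean log2 CPM over the 12 libraries of the other groups. The 4 columns of the 5-mutation group are blue in every row, and some rows, such as Lifr, Itga4 and Npy2r, are also red in the 2-mutation columns.

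The receptors and channels included the gene with the lowest ratio. Htr3a (ENSMUSG00000032269.8; GRCm38 chromosome 9, 48899213 to 48911099, minus strand), which encodes a subunit of the serotonin-gated ion channel 5-HT3, was at 4.18, 6.21, 5.39 and 5.49 CPM with the empty vector, 6.47, 6.97, 6.46 and 5.98 unmutated, 5.77, 7.28, 5.29 and 6.62 with 2 mutations and 0.749, 0.886, 0.366 and 0.735 with 5 mutations. The first 3 groups overlapped each other and the 5-mutation libraries lay far below.

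Ramp1, a partner that turns the calcitonin receptor-like protein into a receptor for the peptide CGRP, was at 16.6, 14.2, 12.9 and 12.0 CPM with the empty vector, 16.4, 15.7, 15.7 and 14.3 unmutated, 14.1, 12.3, 10.4 and 13.2 with 2 mutations and 2.54, 1.77, 2.59 and 2.81 with 5 mutations. Its levels in the first 3 groups overlapped. Tacr3, the receptor for neurokinin B, had 5.07 ± 1.13 CPM (SD, n = 4) with the empty vector, 5.36 ± 0.469 unmutated, 10.2 ± 2.50 with 2 mutations and 1.23 ± 0.238 with 5 mutations. Lifr, the receptor for leukemia inhibitory factor, had 105 ± 5.17, 121 ± 7.82, 310 ± 20.4 and 26.6 ± 2.29 CPM in the same order. Both were highest with 2 mutations and lowest with 5, so the mutated hairpins stood at opposite ends of their range. Further receptor and channel genes were Trhr and Npy2r, receptors for thyrotropin-releasing hormone and neuropeptide Y, Gnao1, the alpha subunit of the neuronal G protein Go, Kcnj10, a potassium channel typical of astrocytes, Orai2, a calcium channel subunit, Sorcs1 and Rasl10a. The 12 genes of this kind lay 2.30 to 7.77 times below the lowest other group, and 6 held the word.

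Of the synaptic genes, Slc17a7 (ENSMUSG00000070570.5; chromosome 7, 45163949 to 45176142, plus strand), the transporter VGLUT1 that loads vesicles with glutamate, had the lowest ratio. It was at 619, 585, 580 and 626 CPM with the empty vector, 612, 552, 579 and 612 unmutated, 708, 672, 673 and 696 with 2 mutations and 90.0, 79.9, 87.4 and 82.2 with 5 mutations. Dnm3 (chromosome 1, 161982453 to 162478034, minus strand), a dynamin that pinches off membrane vesicles, had 200 ± 11.4 CPM with the empty vector, 166 ± 11.9 unmutated, 169 ± 1.82 with 2 mutations and 27.8 ± 4.00 with 5 mutations. For both genes the 5-mutation libraries were several-fold below the rest, whereas Dnm3 was also somewhat lower with the other hairpins than with the empty vector. Rab5c, a small GTPase of early endosomes, was at 98.0, 95.3, 91.4 and 96.7 CPM with the empty vector, 119, 117, 107 and 111 unmutated, 109, 110, 111 and 114 with 2 mutations and 21.4, 18.1, 22.3 and 19.5 with 5 mutations. Sv2a, a vesicle protein bound by the antiepileptic drug levetiracetam, had 498 ± 12.0, 517 ± 6.36, 856 ± 25.9 and 133 ± 5.59 CPM in the same order. Rab5c was thus higher with both other hairpins than with the empty vector, and Sv2a with the 2-mutation hairpin. Dnm1, the most abundant neuronal dynamin, was at 589 ± 19.5, 545 ± 10.2, 535 ± 8.48 and 231 ± 7.83 CPM, and Nptx1, a secreted protein that clusters AMPA receptors, at 103 ± 8.43, 118 ± 5.94, 80.2 ± 3.07 and 32.3 ± 7.03 CPM. Camk2n2 (an inhibitor of the kinase CaMKII), Frrs1l and Abhd6 (both linked to AMPA receptors), Syt10 and Myrip completed the 11 synaptic genes, of which 6 held the word.

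**Figure D2:**
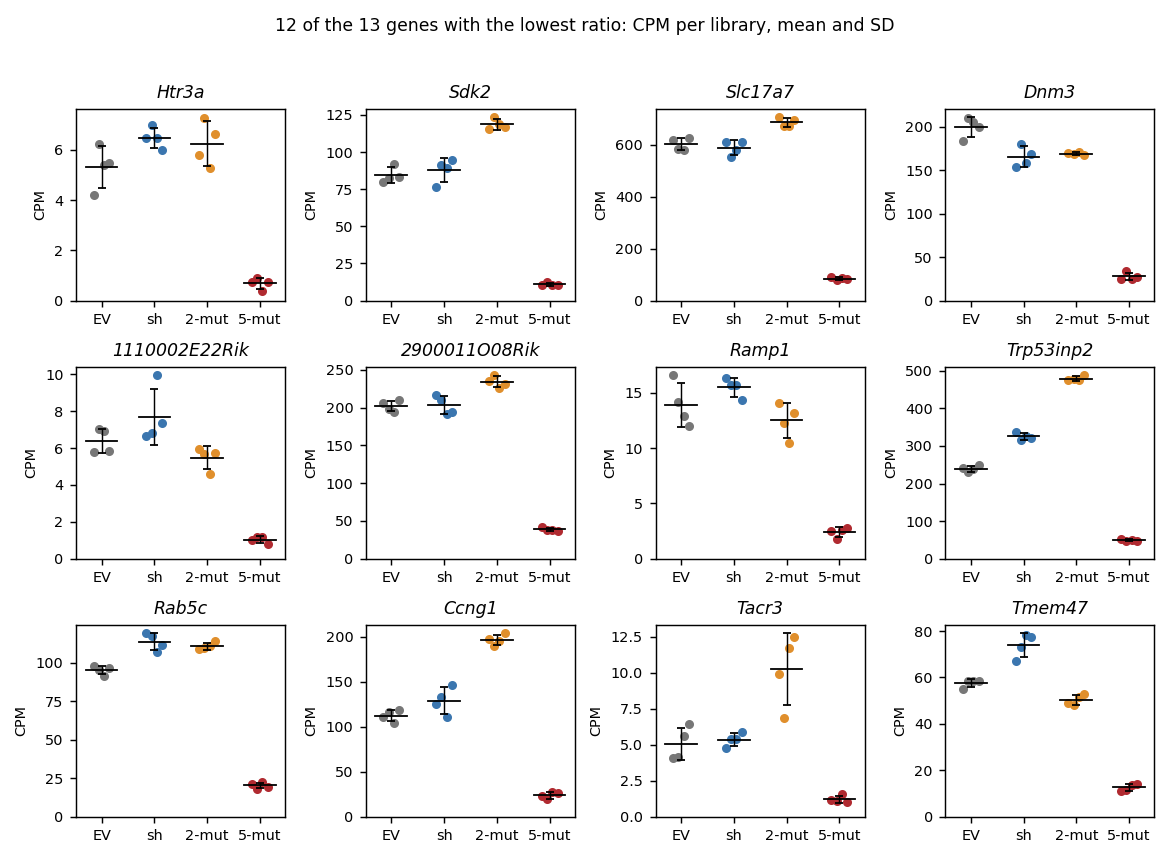
CPM (linear axis from 0) of 12 of the 13 genes with the lowest ratio in each library; points are libraries, horizontal lines means and bars SD (n = 4) for the empty vector (EV), the unmutated hairpin (sh) and the hairpins with 2 and 5 mutations. In each panel the 4 libraries with 5 mutations lie below the 12 others, and the 4 with 2 mutations lie above the 12 others for Sdk2, Slc17a7, 2900011O08Rik, Trp53inp2, Ccng1 and Tacr3.

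The largest role class, with 21 genes, held cell adhesion, matrix, guidance and membrane-skeleton proteins, at 2.23 to 7.67 times below the lowest other group. Sdk2 (ENSMUSG00000041592.16; chromosome 11, 113776374 to 114067046, minus strand), a sidekick protein of the immunoglobulin superfamily that joins synaptic partners in the retina, was at 79.7, 82.3, 92.1 and 83.0 CPM with the empty vector, 76.4, 91.3, 89.3 and 94.3 unmutated, 115, 123, 119 and 117 with 2 mutations and 10.5, 12.3, 10.5 and 10.7 with 5 mutations. Ctnnb1, beta-catenin of adherens junctions and Wnt signalling, had 566 ± 23.1, 552 ± 16.7, 531 ± 6.80 and 197 ± 8.06 CPM. Cfl1, the actin-severing protein cofilin, had 596 ± 22.5, 610 ± 39.3, 785 ± 18.3 and 199 ± 16.8 CPM. All 3 kept close levels within groups, and the 5-mutation libraries lay apart from the rest. How reads with several matches were counted is not given in the sources used here, so the level of Cfl1, which has processed pseudogene copies, is uncertain. The extracellular matrix genes Tnc and Tnr (tenascins), Spon1, Adamts2, Col12a1 and Ndnf, the integrin subunit Itga4, the guidance gene Sema5a and the membrane-skeleton genes Utrn and Epb41l3 belonged to the same class.

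Some genes varied more between libraries, among them Tnc. It was at 18.2, 28.8, 25.5 and 25.4 CPM with the empty vector, 27.6, 43.9, 42.2 and 42.5 unmutated, 48.9, 40, 48.6 and 59.3 with 2 mutations and 9.38, 2.38, 9.60 and 5.35 with 5 mutations. Kcnj10 was at 20, 19.8, 17.2 and 22.8 CPM, 22.5, 14.5, 21.6 and 30.3, 30, 20.2, 24.3 and 25.7, and 6.0, 2.51, 8.78 and 7.5 in the same order of groups. Both genes, which astrocytes also express, were lowest in replicate 2 of the 5-mutation group, the library in which 19 astrocyte markers summed to 857 CPM against 1066, 1278 and 1249 CPM in the other 3. The same sum ran from 1461 to 1841 CPM with the empty vector, 1402 to 1987 unmutated and 1328 to 1631 with 2 mutations, and none of the 19 markers was at 0 in any group. Of the 18 astrocyte markers that were tested, 6 fell and 1 rose with 5 mutations against the empty vector, beside 26.5% lower and 28.4% higher over all tested genes. With 2 mutations 10 of the 18 fell and 2 rose. What part these cells have in the levels of the 100 genes was not tested. The 10 fibroblast markers summed to 230 CPM in replicate 3 with 5 mutations and to 37.5 to 63.5 CPM in the other 3, none of them at 0 in any group.

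Among 16 genes of transcription, RNA and chromatin, Rbfox3, the splicing factor known as the neuronal nuclear antigen NeuN, was at 148, 148, 147 and 149 CPM with the empty vector, 111, 108, 110 and 107 unmutated, 111, 115, 106 and 120 with 2 mutations and 32.2, 33.7, 31.0 and 33.5 with 5 mutations. All hairpins were thus below the empty vector, and the 5-mutation hairpin furthest. Sirt2, a deacetylase of tubulin and other proteins, had 49.2 ± 1.64 CPM with the empty vector, 36.5 ± 1.66 unmutated, 84.1 ± 2.40 with 2 mutations and 9.85 ± 0.696 with 5 mutations. Jun, a subunit of the transcription factor AP-1, was at 102 ± 5.57, 123 ± 9.27, 74.0 ± 4.30 and 21.9 ± 6.87 CPM, and Plagl1, an imprinted zinc finger gene, at 81.2 ± 7.68, 125 ± 24.7, 95.9 ± 6.54 and 21.7 ± 3.27 CPM. Zfp521, a zinc finger factor of neural progenitors, was at 12.9 ± 0.444, 9.29 ± 1.18, 6.21 ± 0.488 and 1.82 ± 0.509 CPM. In this class only 4 of the 16 genes (Sirt2, Bend6, Polr2g and Ybx3) held the word.

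Rarb, the retinoic acid receptor beta, had the least clear separation. Its values were 8.42, 14.7, 8.14 and 9.0 CPM with the empty vector, 4.32, 11.8, 4.75 and 6.86 unmutated, 7.81, 11.5, 7.13 and 8.27 with 2 mutations and 1.91, 4.07, 2.87 and 2.65 with 5 mutations. In each group replicate 2 was the highest library.

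The 15 genes of growth control, signalling and protein turnover included a cyclin and regulators of autophagy and of the kinase mTOR. Ccng1, cyclin G1, a known target of p53, was at 111, 116, 104 and 118 CPM with the empty vector, 125, 133, 111 and 147 unmutated, 198, 190, 196 and 204 with 2 mutations and 22.7, 19.2, 27.4 and 26.7 with 5 mutations. Trp53inp2, which takes part in autophagosome formation, was at 239 ± 7.89, 325 ± 8.32, 479 ± 6.14 and 48.6 ± 2.49 CPM. The 2-mutation mean was the highest for both, and the groups of Trp53inp2 were all separate from each other. Deptor, an inhibitor of mTOR, was at 21.3 ± 2.53, 43.3 ± 4.38, 14.0 ± 2.12 and 6.08 ± 1.32 CPM, the highest with the unmutated hairpin. Among the 17 transporter and metabolic genes, Ahcyl2, a relative of the enzyme that splits S-adenosylhomocysteine, had 165 ± 6.68, 218 ± 10.2, 219 ± 8.11 and 44.2 ± 4.11 CPM. Slc22a17, at 476 ± 9.53, 501 ± 10.1, 468 ± 10.4 and 208 ± 5.11 CPM, was the most abundant of that class. Mt1, a metal-binding metallothionein with close relatives in the genome, was at 41.6 ± 2.19, 45.7 ± 5.55, 36.5 ± 2.89 and 15.5 ± 2.45 CPM. Of 8 genes that are little characterised or outside these classes, 2900011O08Rik was at 202 ± 7.09, 203 ± 12.1, 234 ± 7.17 and 38.8 ± 2.10 CPM.

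How far the 100 genes were spared by the other hairpins was then examined in the fit over all 19479 tested genes. Against the empty vector, all 100 were called lower with 5 mutations (edgeR quasi-likelihood, adjusted p under 0.05), where 26.5% of all tested genes were called lower. The share called lower was 26.8% against the unmutated hairpin and 32.3% against the 2-mutation hairpin, with all 100 genes again among them, which the rule fixed. With the unmutated hairpin, 24 of the 100 were called lower than with the empty vector (19.5% of all tested genes) and 18 higher (20.8%). The latter number was 28 with the replicate number as a block, and the sets of genes called higher with both hairpins or in neither direction, given below, rest on the fit without it. With the 2-mutation hairpin, 23 were called lower (30.8%) and 44 higher (32.5%). The levels of these groups also entered the rule, so these counts are a description.

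The name "lowered by the 5-mutation hairpin alone" therefore held for 64 of the 100, which were called lower with neither other hairpin, and 36 were also called lower with 1 or both. Over all tested genes the shares were 59.4% and 40.6%, so a count of 64 sets the 100 genes little apart. The 11 genes called lower with both other hairpins, which 9.74% of all tested genes were, were Dnm3, Zfp521, Epb41l3, Rbfox3, Slc25a23, Bend6, Cpne8, Trhr, Dnm1, Me3 and Clgn. None of the 100 was more than 2-fold below the empty vector with the unmutated hairpin, and 3 were with the 2-mutation hairpin, namely Zfp521, Cpne8 and Trhr. Trhr, for example, was at 21.2 ± 2.90 CPM with the empty vector, 13.3 ± 1.63 unmutated, 8.59 ± 0.651 with 2 mutations and 2.80 ± 0.357 with 5 mutations. A step down in each group was thus seen for this receptor.

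Other genes moved the opposite way with the 2-mutation hairpin. Its mean was more than 2 times the empty-vector mean for 10 of the 100, which were Trp53inp2, Tacr3, Lifr, Tnc, Itga4, Npy2r, Sema5a, Tmed8, Csgalnact1 and Ier5l. Itga4, the integrin alpha 4 subunit, was at 15 ± 1.11 CPM with the empty vector, 17.5 ± 1.70 unmutated, 48.1 ± 2.15 with 2 mutations and 5.85 ± 0.529 with 5 mutations. Its log2 fold change of 1.74 with 2 mutations was the highest of the 100. Deptor was the single gene above 2 times the empty vector with the unmutated hairpin. The 10 genes called higher with both, beside 10.1% of all tested genes, were Trp53inp2, Rab5c, Ahcyl2, Polr2g, Foxj1, Adi1, Agpat1, Galnt13, Tmed8 and Col12a1. Another 20 genes, among them Htr3a, Ramp1, Ctnnb1, Cyb5b, Mpv17 and Slc22a17, were called in neither direction with the unmutated or the 2-mutation hairpin (27% of all tested genes), which does not show that their levels were the same.

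Over the 100 genes the median log2 fold change against the empty vector was −1.70 with 5 mutations (−3.37 to −1.24), 0.02 unmutated (−0.74 to 0.95) and 0.15 with 2 mutations (−1.25 to 1.74). All eligible genes had medians of −0.01, 0.00 and 0.10. These comparisons share the empty-vector libraries. Scaling by column sums in place of trimmed means (TMM) moved the median of the eligible genes from −0.10 to 0.03 between the 5-mutation and the 2-mutation hairpin, a shift that is small beside the differences of the 100 genes.

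**Figure D3:**
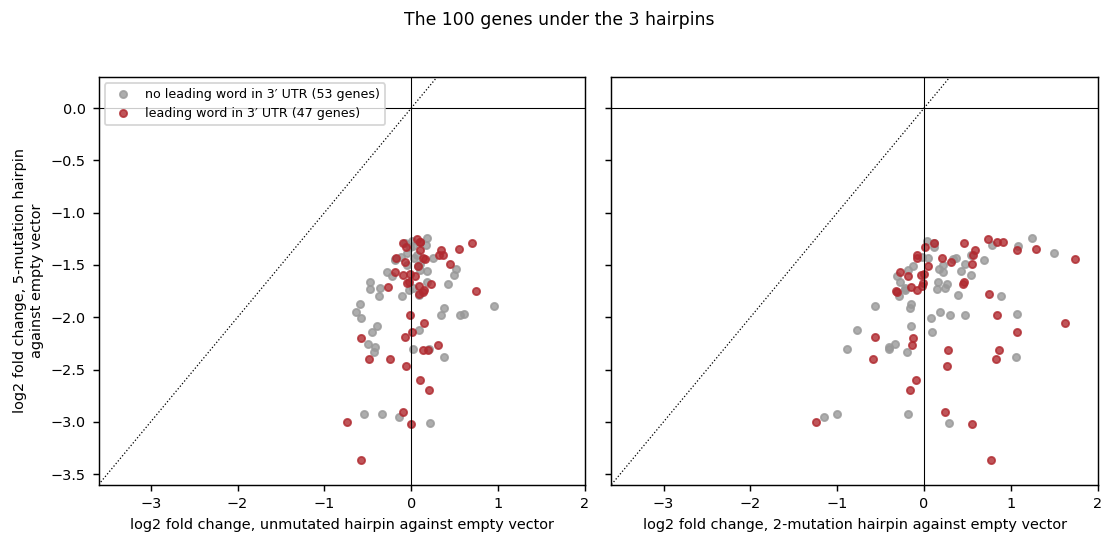
Log2 fold change against the empty vector (edgeR) of the 100 genes with the 5-mutation hairpin (vertical) and with the unmutated (left) or 2-mutation hairpin (right, horizontal); red points hold the leading word in the 3′ UTR, grey ones do not, and the dotted line marks equal change. All points lie below the line, at −3.37 to −1.24 vertically, and the horizontal spread is wider on the right (−1.25 to 1.74) than on the left (−0.74 to 0.95).

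To see the same measure in a library that the choice did not use, the 100 genes were chosen again with each 5-mutation library left out. The rechosen sets shared 95, 93, 96 and 96 genes with the full set when replicates 1, 2, 3 and 4 were left out. In the left-out library the median ratio to the lowest other mean was 0.361, 0.371, 0.379 and 0.376, where all eligible genes had medians of 1.20 to 1.22. The left-out library lay below all 12 others in 100, 98, 100 and 100 of the 100 genes, where this held for 18%, 20.5%, 19.2% and 19.4% of eligible genes. The exceptions, in replicate 2, were Ppp1r1b and Vip, which were not among the 100 of the full rule. Replicate 2 was the highest 5-mutation library in 38 of the 100 genes and the lowest in 27, and its median level over them was 1.01 times the group mean. The left-out library still shares its treatment, and possibly its preparation, with the other 3. Only that library was new, since the 12 libraries of the other groups both rechose the genes and formed these ratios and counts. The values are therefore a description.

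The rule used no sequence, so the UTRs were compared with those of all eligible genes. Ranks 2 and 4 by excess went to words that overlap CTAACCA by 6 bases. These were TAACCAA, in 35% of the 100 against 9.76% of eligible genes, and TCTAACC, in 30% against 8.47%. Next among words that overlap it less came AACCACA (38% against 15.3%), AACCAAA (41% against 19.8%), AAAAACA (51% against 30.2%) and TTCCAAG (37% against 17.3%). AACCACA and AACCAAA share the bases AACCA with the leading word. Of its 6-base parts, CTAACC was in 67% and TAACCA in 73% of the 100, against 23.0% and 29.6%. Of 8-base words, CTAACCAA was in 18% against 2.30%, ACTAACCA in 18% against 2.35% and TCTAACCA in 17% against 2.87%. CCTAACCA and GCTAACCA were in 9% each, against 2.18% and 1.73%. On the opposite strand the word reads TGGTTAG, which was in 11% of the 100 UTRs and in 9.41% of the eligible ones. In coding sequences CTAACCA was found in 9 of the 100 genes and in 5.69% of eligible genes. Words were picked by their excess in these genes, so no test is given, and a match is not evidence of binding.

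Longer UTRs held the word more often, and the UTRs of the 100 genes were longer, with a median of 1989 bases against 1411, at a GC content of 43.9% against 44.3%. Within classes of length the word was in 7 of 17 UTRs of 50 to 1000 bases (41.2% against 2.29% of eligible genes) and in 16 of 35 of 1000 to 2000 bases (45.7% against 6.85%). It was in 14 of 27 of 2000 to 4000 bases (51.9% against 12.8%) and in 10 of 21 of 4000 bases or more (47.6% against 25.7%). The share in the 100 genes thus stayed between 41.2% and 51.9% while the share in eligible genes rose with length.

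The 47 genes held 57 sites. Sirt2 had 4, spaced 16 bases apart in a short repeat of its UTR of 589 bases, the first of which is shown above. Lifr had 3, the closest pair 28 bases apart, and Slc17a7 had 2, 35 bases apart. Sdk2, Tnr, Klhl32 and Mocs2 had 2 each, 413 to 2913 bases apart. The 7 genes with several sites had a median fold below the lowest other group of 3.71, the 40 with 1 site of 2.69 and the 53 without of 2.59. Against the empty vector their median log2 fold changes were −2.2, −1.67 and −1.72, without the same order. Both measures come from the levels that chose the genes, and nothing is read from them. The base after the word was A at 35.1% of the 57 sites and at 23.9% of 877 sites in genes outside the 3 sets of 100 defined below. The base before it was A at 31.6% against 25.5% and T at 35.1% against 31.7%. Each site was counted singly, and the 4 sites of the Sirt2 repeat all have T before and C after the word. The share with T thus rests in part on 1 gene, and nothing is read from it. The sites lay at a median of 32.8% of the UTR's length from its start, against 48.4% for those 877.

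Of the 53 genes without the word in the UTR, 35 held a 6-base part of it there. Another 2 (Aff2 and Orai2) held the whole word in the coding sequence. Genes with only a 6-base part in the UTR were 35% of the whole set of chosen genes. They were 30.1% of all eligible genes, where those with the word are counted in the total as well. The remaining 16 were Aspdh, Tnc, Jun, Rbfox3, Nog, Foxj1, Syt10, Rrbp1, Gnao1, Cntn3, Tox3, Prag1, Mt1, Cav1, Ier5l and Tspan18. These 16 genes were 16% of the whole set, and such genes were 57.9% of all eligible genes. The 16 include Gnao1, at 877 ± 17.1 CPM with the empty vector and 280 ± 6.11 with 5 mutations, and Rbfox3. For these 16 no 6-base part was in the longest 3′ UTR and no whole word in the coding sequence; 6-base parts were not searched for in coding sequences.

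The sequence that the word would pair with, UGGUUAG, was at bases 2 to 8 of none of 1674 mature mouse microRNAs in the RefSeq-based table. The hairpin sequences are not given in the sources used here, so the word was not compared with the seed of the mutated guide. None of 6 annotated Rtn4 transcripts holds CTAACCA.

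The share of genes with the word fell with rank beyond the 100 genes. It was 56% at ranks 1 to 25, 52% at 26 to 50 and 40% at 51 to 100. Past the threshold it was 35% at ranks 101 to 200, 23.2% at 201 to 400, 22.5% at 401 to 800, 14.2% at 801 to 1600, 7.40% at 1601 to 3200 and 6.11% among all lower ranks. The word was picked for its excess in the 100 genes, which favours high shares up to rank 100. Median UTR lengths were 1768 to 2046 bases in the classes up to rank 800. In the later classes they were 1434, 1179 and 1407 bases, and the shares were not adjusted for length.

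**Figure D4:**
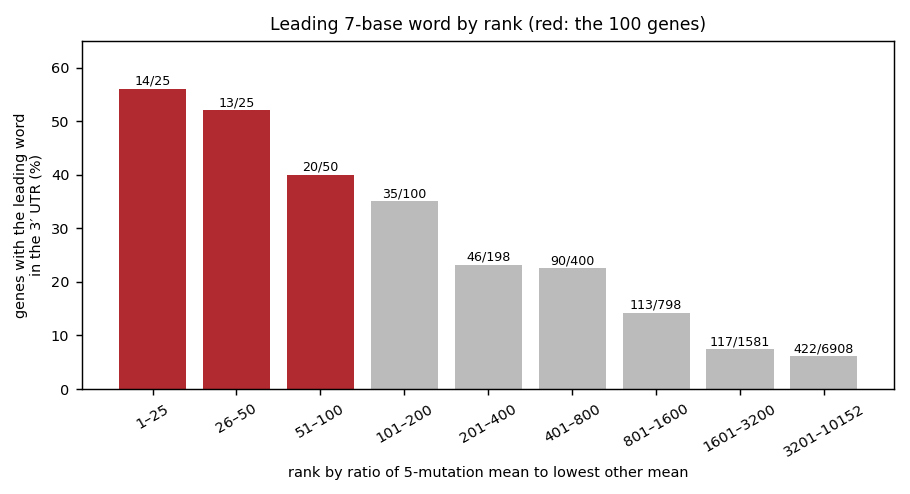
Percentage of genes whose longest 3′ UTR holds the leading 7-base word (vertical, from 0) by rank of the ratio of the 5-mutation mean to the lowest other mean (horizontal, unequal classes); numbers over the bars are genes with the word over genes with a UTR, and red bars are the 100 genes. The share, not adjusted for UTR length, declines from 56% in the first class to 6.11% in the last.

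For comparison the same rule was applied to the other hairpins, taking for each the 100 genes whose mean was lowest relative to the other 3 groups. The 3 sets of genes did not overlap, as the rule requires. Each set had a different leading word. CTAACCA was in 47% of the 5-mutation set, 13% of the unmutated set and 6.06% of the 99 genes with a UTR in the 2-mutation set. The leading word of the unmutated set, TGAAACA, was in 65% of that set and 15% of the 5-mutation set (17.2% of eligible genes), and that of the 2-mutation set, ATGACAA, in 38.4% of its own set and 12% of the 5-mutation set (11.3%).

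In 9833 eligible genes outside the 3 sets, genes with CTAACCA in the UTR were also lower with 5 mutations. Their mean level per library, on the scale of log2(CPM + 0.5) with TMM scaling and centred per gene, was compared with that of genes without it. The difference was 0.13 ± 0.016 (SD, n = 4) with the empty vector, 0.09 ± 0.030 unmutated, −0.01 ± 0.0096 with 2 mutations and −0.21 ± 0.031 with 5 mutations, where libraries ran from −0.24 to −0.17. With UTR length and GC content in a regression, a step added after the values were seen, it was 0.09 ± 0.0028, 0.08 ± 0.0050, 0.04 ± 0.0019 and −0.21 ± 0.0043, so the 2-mutation difference changed sign. The 4 libraries with 5 mutations lay below all others on both scales. No p is given, because the word was picked from the same libraries.

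The words of the other sets had their minimum elsewhere. For TGAAACA the difference was 0.11 with the empty vector, −0.08 unmutated, −0.03 with 2 mutations and 0.01 with 5 mutations, and for ATGACAA it was 0.15, 0.08, −0.32 and 0.08. In the regression the value of TGAAACA with 2 mutations became 0.03. By group mean, each word was lowest in the group whose set of genes it came from. The words were picked from genes low in that group in these same libraries, which favours this outcome, so nothing is read from it. For TGAAACA without the regression, the highest unmutated and the lowest 2-mutation library were both at −0.04.

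**Figure D5:**
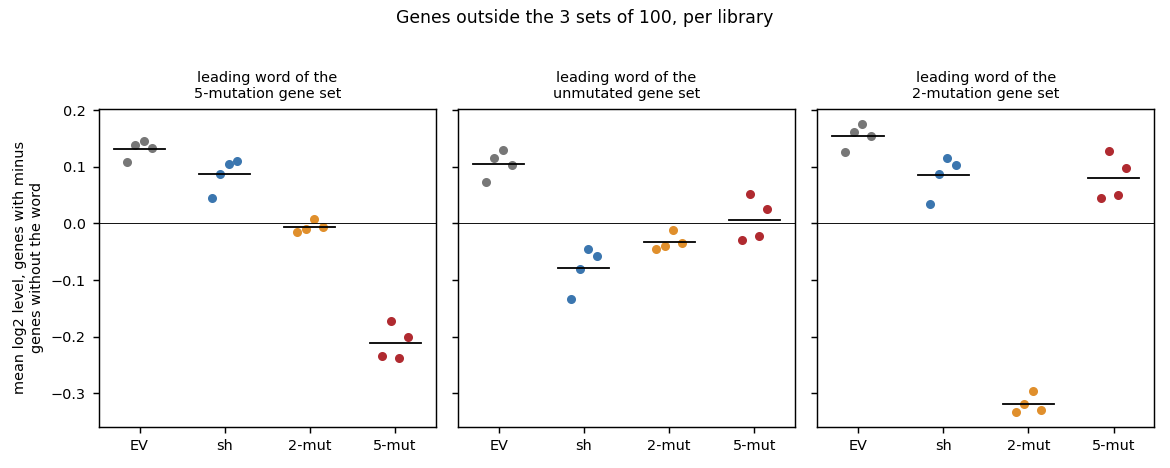
Mean centred log2(CPM + 0.5) of genes with a word minus that of genes without it, in 9833 genes outside the 3 sets of 100, for the leading word of each set (panels); points are libraries and lines group means for the empty vector (EV), the unmutated hairpin (sh) and the hairpins with 2 and 5 mutations. In the left panel the 5-mutation libraries lie at −0.24 to −0.17 and all others above −0.02.

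Counted gene by gene outside the sets, 33.3% of 9027 genes without the word, 62.1% of 744 with 1 copy and 72.6% of 62 with more were called lower with 5 mutations against the empty vector. In the same order 35.5%, 17.6% and 11.3% were called higher, and the median log2 fold changes were 0.01, −0.30 and −0.59. Against the empty vector, 33.3% of the 806 genes with the word and 27.5% of those without were called lower with the unmutated hairpin, and 42.7% and 31.3% with the 2-mutation hairpin. A rise with the number of copies was thus not particular to 5 mutations. Unmutated, 31.9% of genes with 1 copy and 50% with more were called lower, and 41.9% and 51.6% with 2 mutations. These counts were not adjusted for UTR length. The 100 genes, with or without the word, had a median of −1.70. They were chosen for low levels with 5 mutations, so nothing is read from its distance to the −0.30 of genes with a single copy.

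Close relatives of the 100 genes, picked by family, showed whether whole families were low. Of 21 relatives of 18 genes, 8 were called lower with 5 mutations than with the empty vector, 9 higher and 4 in neither direction, beside 26.5% lower and 28.4% higher over all tested genes. CTAACCA was in the UTR of 12 of the 18 genes, which were picked by hand, and of 1 of the 21 relatives, Sv2b, beside 47% of the 100 genes and 8.63% of eligible genes. Slc17a6, the glutamate transporter VGLUT2, rose from 26.1 ± 0.977 CPM with the empty vector to 84.7 ± 4.32 CPM with 5 mutations (log2 1.62 ± 0.15 SE, edgeR adjusted p = 2.7e-07) while Slc17a7 was low. It was also high with 2 mutations, at 131 ± 6.88 CPM. The endosomal Rab5a and Rab5b differed by log2 −0.25 and −0.19 where Rab5c had −2.31, and Sdk1 by −0.48 where Sdk2 had −3.02. Dnm2, the widely expressed dynamin, was at log2 0.00 (edgeR adjusted p = 0.97). Ccng2 rose by 0.78, Cfl2 by 0.16 and Jup, the relative of beta-catenin, by 0.34. Camk2n1 had a log2 fold change of −1.51 where Camk2n2 had −1.61. Il6st, the receptor chain gp130 that works together with Lifr, fell by 0.84 on the log2 scale.

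Lists of genes that surround the 100 were counted in the same comparison of 5 mutations with the empty vector, in which 26.5% of all tested genes were lower and 28.4% higher. Counts with the other hairpins, against the same empty-vector libraries, stand beside them. List genes that are among the 100 are included, and the rule fixed their falls with 5 mutations. Of 30 synaptic vesicle and release genes, Sv2a among them, 24 fell and 4 rose (median log2 −0.38). The unmutated hairpin had 17 lower and 2 higher (−0.19), and the 2-mutation hairpin 18 lower and 7 higher (−0.22). Cplx2, which clamps vesicle fusion, went from 529 ± 31.6 to 96.9 ± 4.54 CPM (97.2 ± 4.86 with 2 mutations) and Syt11 from 707 ± 21.8 to 279 ± 9.53 CPM. In the endocytosis list, which holds Dnm1 and Dnm3, 14 of 22 genes fell and 2 rose (median −0.16). The unmutated hairpin had 11 lower and 4 higher, and the 2-mutation hairpin 8 lower and 11 higher (median 0.06). Snap91, a clathrin assembly protein, went from 631 ± 3.94 to 327 ± 5.14 CPM with 5 mutations. Snap91 stayed at 546 ± 7.90 CPM unmutated and 642 ± 12.7 CPM with 2 mutations. Of 30 postsynaptic genes 21 fell and 1 rose (median −0.30), with 20 lower unmutated and 25 lower with 2 mutations (median −0.49). Of 34 ion channel genes 27 fell and 3 rose (median −0.34), with 19 lower unmutated and 29 lower with 2 mutations (median −0.60). For both lists the 2-mutation hairpin thus had the lower median. Kcnma1, a calcium-activated potassium channel with CTAACCA in its UTR, went from 395 ± 17.5 to 124 ± 12.6 CPM (356 ± 32.2 unmutated and 227 ± 7.08 with 2 mutations). Plxna2, of the axon guidance list and also with CTAACCA in its UTR, rose from 287 ± 0.844 to 416 ± 23.3 CPM.

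Markers of cell types moved as well. Of 18 excitatory neuron markers, 11 fell and 1 rose. The unmutated hairpin had 6 lower and 6 higher, and the 2-mutation hairpin 6 lower and 8 higher. Their summed level, which includes Slc17a7, was 3729 to 3947 CPM with the empty vector, 3287 to 3401 unmutated, 2768 to 2811 with 2 mutations and 2120 to 2196 with 5 mutations. Of 20 inhibitory neuron markers, 17 fell and none rose (18 fell and none rose unmutated, 13 fell and 3 rose with 2 mutations). Their sums were 1486 to 1731 CPM with the empty vector and 564 to 800 with 5 mutations. The latter range overlapped that of the unmutated hairpin, 524 to 790 CPM, and reached into that of the 2-mutation hairpin, 753 to 1006 CPM. No excitatory or inhibitory marker was at 0 in any group. Of 20 pan-neuronal genes, which include Rbfox3 of the 100, 10 fell and 4 rose. The unmutated hairpin had 14 lower and none higher, and the 2-mutation hairpin 11 lower and 7 higher. The part of these shifts in the levels of the 100 genes was not tested.

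Other lists gave a mixed picture. Of 24 cholesterol synthesis genes 22 fell and 1 rose (median log2 −1.05), and none of them was among the 100. With the unmutated and the 2-mutation hairpin 21 of the 24 fell in each case (medians −0.61 and −1.07), and the median between 5 and 2 mutations was 0.01. Of 25 immediate early genes 17 rose and 4 fell (median 0.78), and Jun, at −2.30, was among the 4. The unmutated hairpin had 12 higher and 1 lower, and the 2-mutation hairpin 7 higher and 7 lower. Dusp5, a phosphatase of the kinase ERK, rose from 2.68 ± 0.385 to 23.8 ± 1.5 CPM. Of 22 p53 targets, 9 fell and 3 rose with 5 mutations, 1 fell and 10 rose unmutated, and 5 fell and 15 rose with 2 mutations. The 9 that fell include Ccng1 and Zmat3, an RNA-binding protein that went from 209 ± 5.78 to 99.1 ± 3.44 CPM. Those that rose with 5 mutations include Bbc3 and Pmaip1, which promote cell death, from 38.6 ± 1.53 to 64.4 ± 1.36 CPM and from 12.7 ± 0.847 to 21.1 ± 0.658 CPM. Pmaip1 was also high with 2 mutations, at 24.3 ± 1.22 CPM. Of 32 axon guidance genes 12 fell, Sema5a among them, and 10 rose, where 14 fell and 7 rose unmutated. The 2-mutation hairpin had 19 lower and 7 higher. Of 20 progenitor and cell cycle genes 12 rose and 3 fell, and 9 rose unmutated and 10 with 2 mutations.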

How the data were processed

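The deposited table gives unnormalized read counts per gene (55335 genes, 16 libraries). The submitters' processing notes name STAR 2.7.2b, the build GRCm38.p6, featureCounts, edgeR, cutadapt 1.15, Trim Galore 0.6.0 and bcl2fastq 2.20.0.422. Libraries were directional, per the labels' protocols, but the strand setting of the counting is not given in the sources used here. For the 29 of the 100 genes that share exon bases with a gene on the opposite strand (Dnm3, 1110002E22Rik, 2900011O08Rik, Tmem47, Plagl1, Ahcyl2, Sirt2, Tnc, Jun, Slc25a23, Tnr, Prox1, Cfl1, Sorcs1, Pea15a, Ctnnb1, Klhl32, Gnao1, Itga4, Agpat1, Etfrf1, Rasl10a, Usp31, Rarb, Aff2, Iqcg, Deptor, Me3 and Pon2), reads of both genes may not have been told apart.

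Gene IDs were matched to GENCODE vM21 (181 unmatched), which also gave gene types, UTRs and antisense overlaps. CPM for the rule and for printed levels divide by the column sum. Tests used edgeR 4.0.16 in R 4.3.3: filterByExpr (19479 genes), TMM, robust quasi-likelihood with 1 coefficient per group over all 16 libraries, 2-sided, Benjamini-Hochberg over all tested genes, with an adjusted p below 0.05 called. The fit was tested on simulated data with 200 changed genes: 100% of genes at log2 −2 and 94% at log2 −1 were recovered for the 5-mutation hairpin against the empty vector (19077 genes fitted). Replicates differed by more than counting noise in each group (chi-square over its degrees of freedom was 3.46 to 24.2), and all were kept.

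The members, gene lists, roles and relatives were chosen with earlier results of these data known. All 100 genes may be named, with values for the 20 lowest ratios, up to 4 in each list, up to 10 with the word and 5 on each side of the threshold; other members were named for their role or behaviour after their values were seen. Outside the 100, up to 3 genes per list with the smallest p, the relatives and Rtn4 are named. Alternatives were DESeq2 1.42.0, its size factors, no filter, a replicate block, each library left out, and other CPM scalings, floors, UTR definitions and set sizes. Words and plots used Python 3.11.15, numpy 2.4.6, pandas 2.3.3, scipy 1.17.1 and matplotlib 3.10.9. Of the 100 genes, 1 is not reported here by name, though it is part of the counts and ranges.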

Additional observations from a re-analysis of the deposited data

Results flagged for a closer look

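Among 92 groups of 4 libraries examined for genes with full values, 3 held a library whose distance from the nearest other exceeded Dixon's critical value of 0.829 of the group's range; chance flags about 1 in 20 groups. For Sdk2, replicate 2 of the 5-mutation group, at 12.257 CPM, stood above the others (10.47 to 10.732 CPM). Tmem47 in replicate 1 of the empty vector, at 54.833 CPM, was below the other 3 (58.292 to 58.436 CPM). Tnc in replicate 1 of the unmutated hairpin, at 27.612 CPM, was below the other 3 (42.24 to 43.934 CPM). All 3 libraries were kept.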

How the results depend on the processing

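Of the 100 genes, 96 were chosen again with TMM-scaled CPM, 95 with totals over protein-coding genes, 93 with medians of libraries, 85 with a floor of 2 CPM, 78 with a floor of 10 CPM, and 93 to 100 with any 1 library left out. Same-numbered libraries of different groups correlated at −0.02 to 0.27 in their deviations (median 0.10). Those with other numbers correlated at −0.35 to 0.30 (median −0.03). The replicate numbers thus did not meet the rule for pairs, although 15 of 16 libraries correlated best with their own number. What the number stands for is not given in the labels, and the main fit does not use it. With the replicate number as a block, 28 in place of 18 of the 100 were called higher with the unmutated hairpin; the cause was not tested. In coding sequence the leading word was in 9% of the 100 genes, 3.305 percentage points above eligible genes, in place of 47% and 38.4 points in 3′ UTRs. It ranked first with the union of annotated UTRs (51%), in a set of 200 genes (41%) and in UTRs of 500 to 3000 bases (45.8%). Leaving out a library gave 19 to 23 genes called lower with the 2-mutation and 21 to 25 with the unmutated hairpin. The difference of genes with the word outside the sets, 5 mutations minus the mean of the other groups, was −0.282, and −0.286 to −0.278 with other pseudocounts, scalings or the regression, all added after seeing the data. With DESeq2 size factors 5378 genes were lower and 5218 higher with 5 mutations against the empty vector, in place of 5157 and 5540. The lowest count of the 100 genes in a 5-mutation library was 13 reads (Htr3a), which limits the precision of such ratios.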
